A study of Mus musculus with 5 samples.

Results

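Chemokines are small secreted proteins that guide migrating cells, and chemokine receptors are the membrane proteins that read them. The 57 genes described here were all gene symbols of the deposited tables that begin with Ccl, Cxcl, Ccr or Cxcr followed by a digit, with Cx3cl1, Cx3cr1, Xcl1 and Xcr1 added, out of 32245 symbols. They comprise 38 ligands and 19 receptors, and the rule used names only, no measured value. In a chemokine circuit a cell secretes the ligand, which is held on nearby matrix and cell surfaces, and another cell that carries the matching G-protein-coupled receptor moves up the gradient. In the intestine, chemokines from epithelium and stroma are best known for bringing lymphocytes, plasma cells and dendritic cells to the mucosa, for placing B cells in follicles, and for leading cells into lymphatic vessels. Ligands often share a receptor and receptors often share a ligand, so the genes were read as sources against receivers.

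Single-cell RNA was measured with 10x Genomics droplets in the mouse intestine. There was 1 library from each of 5 segments, duodenum, jejunum, ileum, colon and rectum, with epithelial, mesenchymal and immune cells in each, per the labels. All 5 libraries were made from live cells sorted by exclusion of propidium iodide, a dead-cell stain used at 5 µg/ml, and no treatment, genotype, strain or age is given for them in the sources used here. With 1 library per segment, no difference between segments could be tested, and each segment cannot be told apart from its own library.

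The libraries held between 2884 and 4355 cell barcodes, and 11922 cells with 210221444 UMIs (unique molecular identifiers, 1 per captured RNA molecule) were kept, between 1829 and 3196 per library. Of the kept barcodes, 30 also occurred in another library. Levels are CPM (a gene's UMIs as parts of 1000000 UMIs), from UMIs summed over all cells of a class in a library, given where the class had at least 20 cells there. Intervals are exact Poisson 95% intervals for CPM and exact Clopper-Pearson 95% intervals for shares of cells, and both cover counting error only. Cells fell into 37 clusters and 19 named classes, from marker lists that held none of the 57 genes. The 57 genes were also left out of the genes used for clustering, and names end in "like" because they rest on transcripts alone. The kept cells were 4915 epithelial, 6332 immune, 542 stromal and 133 endothelial. The stroma was thin in the small intestine, where no stromal class reached 20 cells in any library, so stromal levels by class are from colon and rectum.

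The 38 ligands had 226330 UMIs and the 19 receptors 35208 UMIs in kept cells. At least 50 UMIs were reached by 46 genes, 31 ligands and 15 receptors, and at least 200 UMIs by 41. The leading class of a gene is the class with the highest mean of its library CPM values. Epithelial classes led for 7 of the 31 ligands (Ccl6, Ccl9, Ccl20, Ccl25, Ccl28, Cx3cl1 and Cxcl5), against 30.4% of all genes with at least 50 UMIs. Immune classes led for 17 ligands (33.2% of all genes), stromal classes for 6 (28.2%) and lymphatic endothelial-like cells for 1, Ccl21a (8.26%). Receptors had immune leaders in 14 of 15 cases, and the exception, Cxcr2, had 68 UMIs in all and was spread thinly over many classes. The leading class was compared with the classes of other compartments that had at least 20 cells in a library. This leaves out blood endothelial-like and tuft-like cells. The lead over all compared classes was at least 4-fold for 25 of 31 ligands and 13 of 15 receptors, against 25.0% of all genes. The same class led in every library that held it for 17 ligands and 7 receptors, against 34.7% of all genes.

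**Figure D1:**
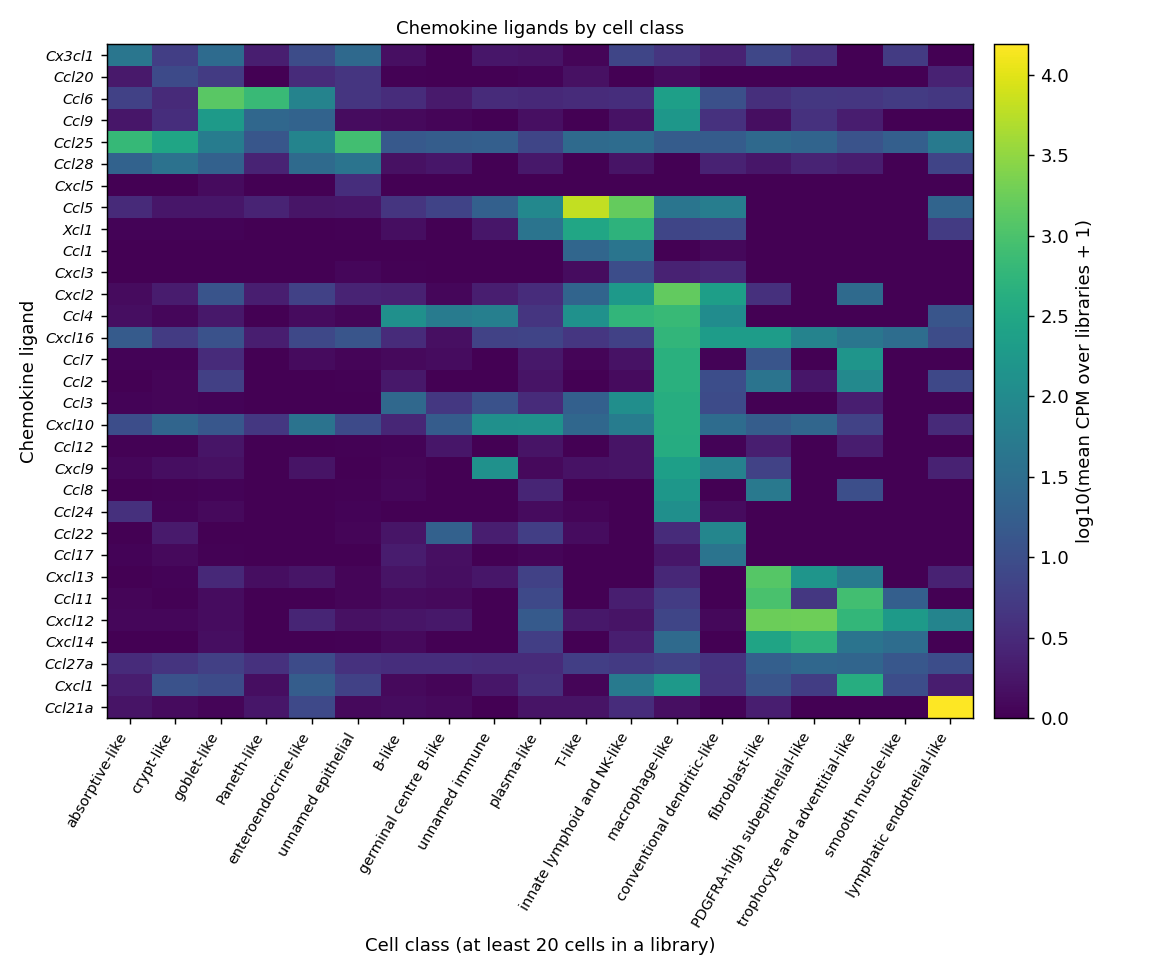
Mean level of the 31 ligands with at least 50 UMIs (rows) in each cell class (columns), as log10 of the mean CPM over libraries plus 1. Each row has few bright cells, with Ccl21a in lymphatic endothelial-like cells the brightest at 15451 CPM, and macrophage-like cells lead in 11 rows.

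**Figure D2:**
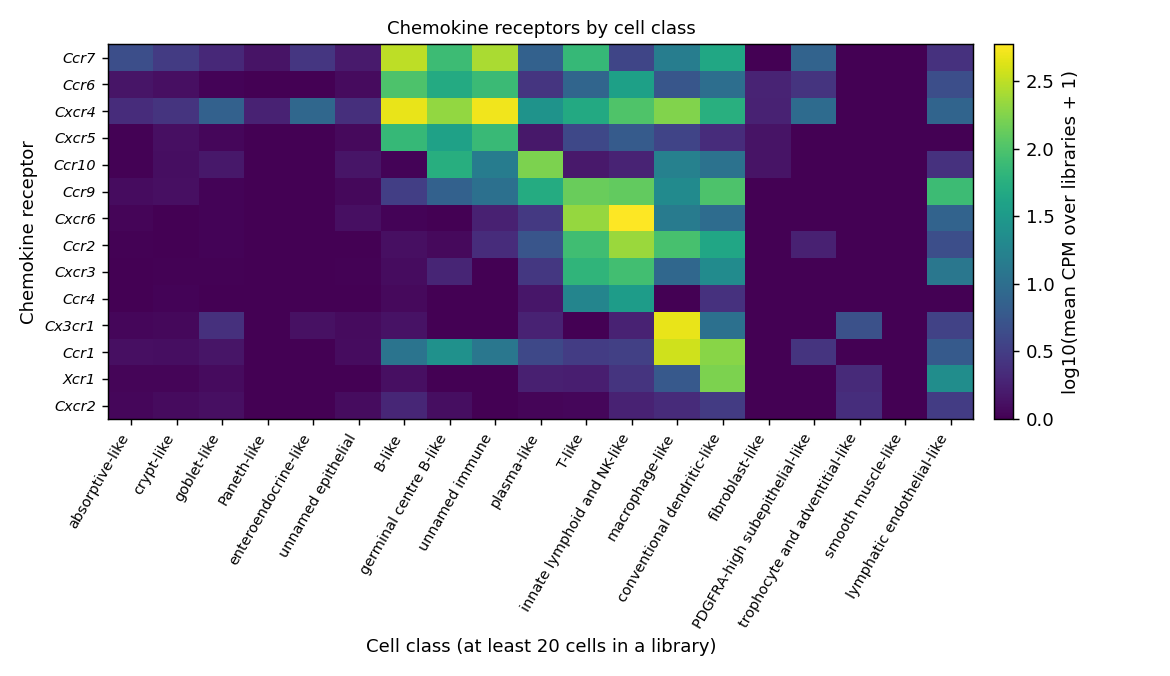
Mean level of 14 receptors with at least 50 UMIs (rows) in each cell class (columns), on the same log10 scale. Signal lies in the immune columns, with Cxcr6 in innate lymphoid and NK-like cells the highest value at 589 CPM.

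Macrophage-like cells summed over all 38 ligands reached 5482 to 6824 CPM per library, and over all 19 receptors 1183 to 1568 CPM. Absorptive-like cells had 99.1 to 1201 CPM of ligands and at most 23.5 CPM of receptors. Stroma showed the same imbalance: fibroblast-like cells had 4365 and 4861 CPM of ligands and 1.79 and 3.28 CPM of receptors. In B-like cells the order was turned round, with 129 to 225 CPM of ligands and 684 to 1270 CPM of receptors. Innate lymphoid and NK-like cells, 360 in all, carried both, with 2055 to 4335 CPM of ligands and 1036 to 1624 CPM of receptors.

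The most abundant ligand was Ccl25, known for drawing Ccr9-bearing lymphocytes to the small intestine, with 68620 UMIs. Over all epithelial cells its level was 701, 859, 559, 24.4 and 10.3 CPM from duodenum to rectum. The 3 small intestinal libraries lay at 559 CPM or above and the 2 large intestinal ones at 24.4 CPM or below, a gap of 22.9-fold between the ileal and the colonic value. By the mean over libraries the unnamed epithelial clusters had 817 CPM and absorptive-like cells 648 CPM, but the first mean covers 4 libraries and the second 5, and absorptive-like cells led with summed CPM, at no more than 10% mitochondrial UMIs and at resolution 2.0. Absorptive-like cells held 62.1% of its UMIs and had 1059, 1059, 1092, 23.2 and 5.88 CPM from duodenum to rectum. The unnamed epithelial clusters matched that level, with 1000 and 1030 CPM in the duodenal and jejunal cluster led by Rbp7 and Reg1 and 1228 CPM in the ileal cluster led by Reg3g and Reg3b, against 10.2 CPM in the rectal cluster led by Wfdc2. Crypt-like cells averaged 290.3 CPM and ranged over 369, 423, 337 and 32.3 CPM in duodenum, jejunum, ileum and colon, and goblet-like cells had 62.9, 136, 53.4, 16.8 and 11.0 CPM from duodenum to rectum.

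B-like cells, which should lack Ccl25, had 18.6, 10.8, 17.5, 10.1 and 11.3 CPM from duodenum to rectum. This was 2.65, 1.26, 3.13, 41.4 and 110% of the epithelial level from duodenum to rectum, beside 2.04, 1.29, 1.69, 4.10 and 1.34% for 8 general epithelial markers. As a percentage of the epithelial level, B-like Ccl25 thus lay near the markers in the small intestine and far above them in colon and rectum. The B-like CPM in colon and rectum was below that in duodenum and ileum, while the epithelial level there was only 24.4 and 10.3 CPM. Where the large intestinal UMIs came from was not tested. In rectum the interval of the epithelial level (9.01 to 11.7 CPM) overlapped that of B-like cells (6.99 to 17.3 CPM), and in colon it lay above (22.8 to 26.0 CPM, against 5.21 to 17.6 CPM in B-like cells). The share of absorptive-like cells with a Ccl25 UMI was 96.2, 97.9, 98.9, 32.5 and 5.26% from duodenum to rectum, at median depths of 35621, 33306, 15788, 31887 and 5792 UMIs. In B-like cells it was 6.40, 3.87, 6.40, 2.98 and 4.09%, at median depths of 2723 to 3491 UMIs. Thinned to 1000 UMIs per cell, the shares were 59.9, 62.2, 58.7, 2.62 and 0% in absorptive-like cells and 2.46, 1.67, 1.30, 0.518 and 1.39% in B-like cells.

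The Ccl25 gene lies at chr8:4325205-4360020 of GRCm38.p6, the assembly behind mm10, and RefSeq's promoter table holds 2 windows for it. The 250 bases before each start are shown because they stand upstream of the gene with the widest segment difference among the 57. The first, chr8:4324960-4325209 on the plus strand, is rich in G and C and the second, chr8:4349338-4349587 on the plus strand, holds a TATAAA box, in capitals, 16 bases before the start.
Ccl25: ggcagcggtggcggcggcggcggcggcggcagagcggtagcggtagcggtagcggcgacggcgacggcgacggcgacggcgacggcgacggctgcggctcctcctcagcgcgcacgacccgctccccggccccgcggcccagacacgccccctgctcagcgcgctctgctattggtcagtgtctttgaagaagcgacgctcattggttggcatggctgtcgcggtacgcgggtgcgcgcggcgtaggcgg
Ccl25: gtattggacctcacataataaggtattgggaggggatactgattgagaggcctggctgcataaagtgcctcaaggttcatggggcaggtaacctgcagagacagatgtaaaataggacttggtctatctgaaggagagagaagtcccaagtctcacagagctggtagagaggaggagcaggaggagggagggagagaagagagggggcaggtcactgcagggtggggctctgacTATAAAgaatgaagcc
TATAAA, searched on the gene's strand only, occurs in 7.59% of the 32851 RefSeq windows of this length. The sequences are RefSeq's, and the data do not show which start was used.

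Ccr9, the receptor of Ccl25, followed the same division of segments in several receiving classes. T-like cells had 172, 323, 159, 26.5 and 2.75 CPM from duodenum to rectum, innate lymphoid and NK-like cells 153, 304, 149.6, 28.8 and 0 CPM from duodenum to rectum, and plasma-like cells 72.0, 84.3, 77.0, 11.9 and 5.82 CPM from duodenum to rectum. In all 3 classes the lowest small intestinal library was above the highest large intestinal one, and in T-like cells the gap was 6.01-fold. Counts in the large intestine were small, with 7 UMIs in colon and 1 in rectum for T-like cells. The 0 in rectal innate lymphoid and NK-like cells allows up to 4.65 CPM, the level of 3 counts. T-like cells comprised a cluster of 433 cells present in every library and a cluster of 257 cells led by Gzma and Gzmb, cytotoxic granule genes, with 177, 54, 23, 3 and 0 cells from duodenum to rectum. Within the first cluster alone Ccr9 was at 254, 533, 169, 19.9 and 2.75 CPM from duodenum to rectum, a comparison added after seeing the data.

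The share of T-like cells with a Ccr9 UMI was 35, 52.0, 36.5, 8.57 and 1.25% from duodenum to rectum, at median depths of 4277, 4429, 4969, 3404 and 4622 UMIs, and 15.5, 26.8, 13.9, 0 and 0% after thinning. In absorptive-like cells, which should lack it, the share was at most 1.12%. Conventional dendritic-like cells held more Ccr9 UMIs than T-like cells, 721 against 533 of 2051. Of those 721 UMIs, 364 (50.5%) were in 24 cells with at least 4 of 8 markers of plasmacytoid dendritic cells, a cell type known to carry Ccr9. The same marker count was met by 55 plasma-like cells, which held 72 of the 431 Ccr9 UMIs of their class, by 15 germinal centre B-like, 12 macrophage-like and 9 B-like cells, so it is not particular to one cell type here. A single lymphatic endothelial-like cell held 44 of that class's 54 UMIs, so the level of this class rests on it.

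Ccl28, a mucosal ligand known for drawing IgA-secreting plasma cells, showed the opposite division in epithelium with a narrower gap. Its epithelial level was 19.7, 17.7, 16.0, 38.1 and 62.1 CPM from duodenum to rectum, at least 1.93-fold higher in either large intestinal library than in any small intestinal one. Every large intestinal library stood above every small intestinal one for 7 of 21 genes measured in epithelium, against 34.9% of all genes and so close to the background. Crypt-like cells had 29.1, 39.4, 29.9 and 50.9 CPM in duodenum, jejunum, ileum and colon, absorptive-like cells 8.17, 9.92, 8.44, 27.2 and 45.0 CPM from duodenum to rectum, and the unnamed rectal cluster 76.5 CPM. Its receptor Ccr10 was a plasma-like gene in all segments, at 177, 135, 183, 167 and 162 CPM from duodenum to rectum, with 82.7% of its 3100 UMIs in that class. Ccr10 did not follow the division of Ccl28: the ileum had the highest value and the jejunum the lowest. Germinal centre B-like cells had Ccr10 mainly in the large intestine, at 0, 5.03, 2.55, 102 and 159.7 CPM from duodenum to rectum.

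Ccl20, which attracts Ccr6-bearing B cells, T cells and dendritic cells to lymphoid follicles, was a low epithelial gene with 707 UMIs. Its epithelial level was 3.43, 2.48, 2.21, 7.34 and 7.29 CPM from duodenum to rectum, at least 2.13-fold higher in the large intestine. Crypt-like cells led with 4.66, 9.79, 5.98 and 10.6 CPM in duodenum, jejunum, ileum and colon, so within this class jejunum lay near colon. The libraries held 380, 125, 223, 413 and 7 crypt-like cells from duodenum to rectum. How far this mix moves the level over all epithelial cells was not tested. Ccr6 was led by B-like cells, at 82.5, 126, 88.5, 91.6 and 105 CPM from duodenum to rectum, with 69.9% of its UMIs there, and these levels did not divide small from large intestine.

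Cx3cl1 (fractalkine), a ligand tethered to the membrane, was led by absorptive-like cells, with 40.5, 55.4, 47.7, 26.9 and 49 CPM from duodenum to rectum. Goblet-like cells had 45.1, 29.4, 24.3, 21.1 and 19.3 CPM from duodenum to rectum, above absorptive-like cells in duodenum. Its receptor Cx3cr1 was almost confined to macrophage-like cells, which held 95.5% of its UMIs, at 568, 388, 349, 556 and 531 CPM from duodenum to rectum. The second class, conventional dendritic-like cells, averaged 9.47 CPM. Thus the ligand was in the epithelium of all 5 segments and the receptor in the macrophage-like cells of all 5.

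**Figure D3:**
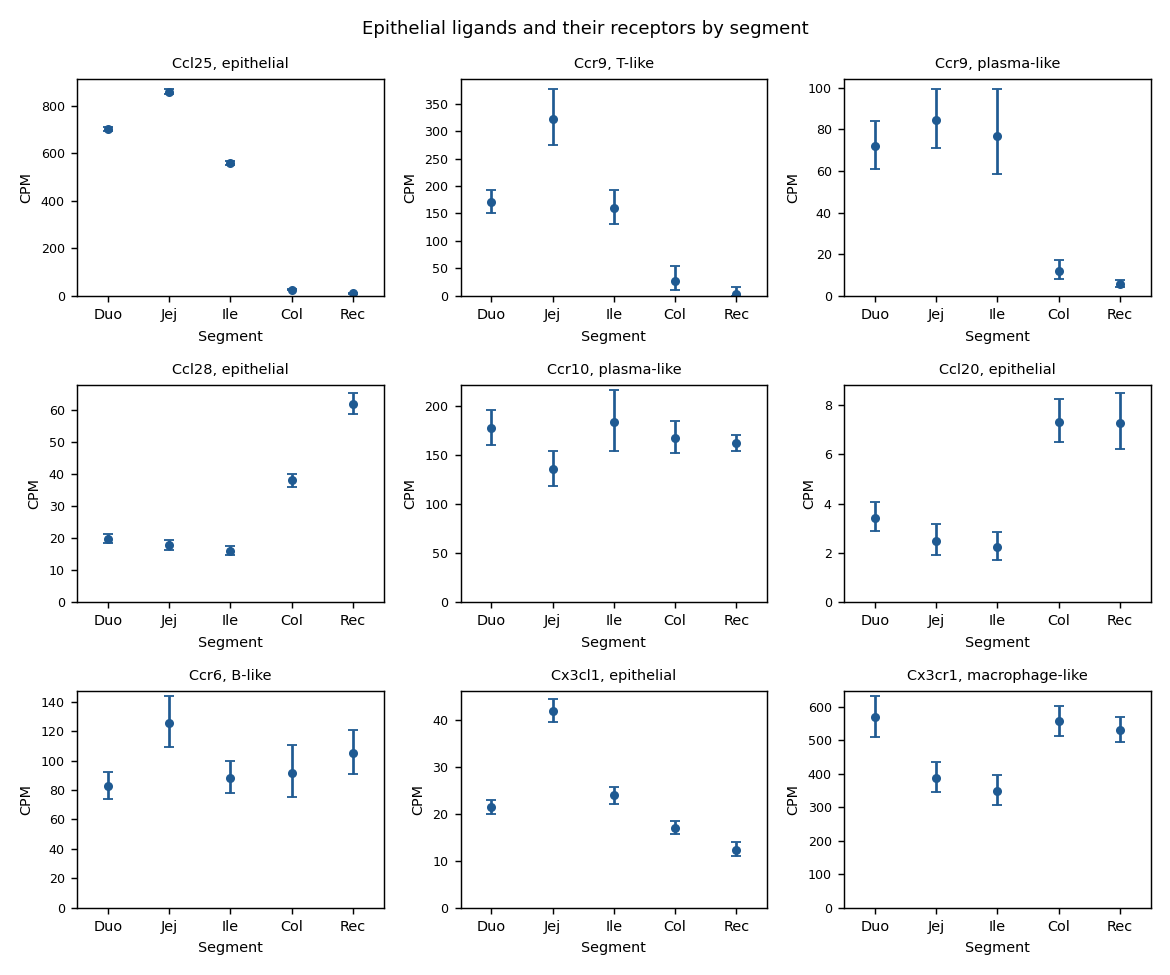
Levels (CPM, axes from 0) of epithelial ligands over all epithelial cells and of their receptors in receiving classes, by segment (Duo, duodenum; Jej, jejunum; Ile, ileum; Col, colon; Rec, rectum), 1 library each, with exact Poisson 95% intervals. Ccl25 and Ccr9 are high in the 3 small intestinal libraries and low in colon and rectum, Ccl28 and Ccl20 are higher in colon and rectum, and Ccr10 and Ccr6 show no such division.

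Ccl6 and Ccl9, rodent CC chemokines that act on Ccr1, were led by goblet-like cells. For Ccl9 the lead was small, a mean of 189 CPM against 167 CPM in macrophage-like cells. Ccl6 had 1429, 1377, 952, 859.8 and 1924 CPM from duodenum to rectum in goblet-like cells, which led in all 5 libraries and held 87.4% of its 35941 UMIs. The 24 Paneth-like cells of the ileum had 684 CPM (95% interval 651 to 718). Macrophage-like cells had 74.3, 204, 212, 399.6 and 254 CPM from duodenum to rectum, lower than goblet-like cells in every library. Ccl9 was at 210, 278, 319.6, 119 and 17.3 CPM from duodenum to rectum in goblet-like cells, and at 118, 123, 134, 230.2 and 229.8 CPM from duodenum to rectum in macrophage-like cells. Goblet-like cells were thus above macrophage-like cells in duodenum, jejunum and ileum and below them in colon and rectum, where the Ccl9 intervals of both classes did not overlap. Their receptor Ccr1 was at 536, 338, 267, 353 and 348 CPM from duodenum to rectum in macrophage-like cells and averaged 188 CPM in conventional dendritic-like cells. Among dendritic-like cells it was in the cluster led by Cd209a (381, 274 and 342 CPM in duodenum, jejunum and ileum), while the cluster led by Xcr1 and Clec9a had 0 Ccr1 UMIs in duodenum and rectum, with upper 95% bounds of 4.33 and 4.49 CPM.

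Cxcl5, a neutrophil attractant acting on Cxcr2, had 174 UMIs, of which 172 were in the rectal library and 162 in the unnamed rectal cluster, at 10.3 CPM (95% interval 8.80 to 12.1). Cxcl1, another Cxcr2 ligand, was also found in epithelium, at 0.753, 2.48, 1.03, 20.2 and 15.8 CPM from duodenum to rectum. The large intestinal values exceeded the small intestinal ones at least 6.37-fold, and colonic crypt-like cells reached 35 CPM (95% interval 31.9 to 38.2). Colonic and rectal epithelium had 15.5 and 7.8% of the macrophage-like level of Cxcl1, whereas 12 macrophage markers were at 0.115 and 0.168% of theirs.

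Among stromal ligands Cxcl12, which acts on Cxcr4 and retains B-lineage and other immune cells, was the most abundant. PDGFRA-high subepithelial-like cells had 1987 and 1714 CPM in colon and rectum, fibroblast-like cells 1865 and 1616 CPM in colon and rectum, and trophocyte and adventitial-like cells 674 and 525 CPM in colon and rectum. The first 2 classes overlapped in their intervals in both segments. Over all stromal cells Cxcl12 was at 1461, 798, 1352 and 1335 CPM in duodenum, ileum, colon and rectum, the jejunum having too few. The mix of stromal classes differed between these libraries, and how far it moves this level was not tested. Only 16 blood endothelial-like cells were kept, too few for a level in any library, and all but 1 of them had a Cxcl12 UMI. The stromal lead of Cxcl12 was thus read without that class.

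Cxcr4, its receptor, was highest in B-like cells and in the unnamed immune cluster. B-like cells had 513, 764, 439, 328 and 340.5 CPM from duodenum to rectum and held 59.8% of its 9344 UMIs. The unnamed immune cluster was led by interferon-stimulated genes such as Ifit2 and Ifit3, met the B markers but was not named because more of its 10 leading genes were on another marker list than on the B list, had cells from small intestine only and was at 404, 651 and 494 CPM in duodenum, jejunum and ileum. T-like cells lay far lower, at 24.4, 35.9, 41.7, 49.2 and 85.3 CPM from duodenum to rectum. All 3 small intestinal B-like values were above both large intestinal ones, by less than 4-fold, against 20.5% of all genes measured in B-like cells.

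Cxcl13, the ligand that organises B cell follicles through Cxcr5, was led by fibroblast-like cells and was uneven between libraries. Fibroblast-like cells had 329.6 and 2128 CPM in colon and rectum, and the rectal library held 2754 of 3741 UMIs. Over all stromal cells the level was 1184, 161, 194 and 1091 CPM in duodenum, ileum, colon and rectum, so duodenum and rectum were high and ileum and colon low. Stromal cells of duodenum, ileum, colon and rectum included 17, 6, 75 and 136 fibroblast-like and 10, 15, 60 and 43 trophocyte and adventitial-like cells. By class mean, Cxcl13 was at 1229 CPM in fibroblast-like and 52.05 CPM in trophocyte and adventitial-like cells. How far this mix moves the level over all stromal cells was not tested. In fibroblast-like cells of colon and rectum 33.3 and 52.9% had a UMI. Cxcr5 was at 72.5, 71.0, 60.5, 52.9 and 96.8 CPM from duodenum to rectum in B-like cells and at 65.5, 96.7 and 62.9 CPM in duodenum, jejunum and ileum in the unnamed immune cluster.

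Cxcl14, a stromal chemokine with no agreed receptor among the 19, was led by PDGFRA-high subepithelial-like cells, with 315 and 689 CPM in colon and rectum. Fibroblast-like cells had 453 and 106 CPM in colon and rectum, so the order of the 2 classes was turned round between colon and rectum. Ccl11 (eotaxin), which attracts eosinophils through Ccr3, was at 1241 and 678 CPM in colon and rectum in fibroblast-like cells and 478 and 1199 CPM in colon and rectum in trophocyte and adventitial-like cells, again in opposite order in the 2 segments. Cxcl1 was led by trophocyte and adventitial-like cells, at 354 and 443 CPM in colon and rectum, with macrophage-like cells next at 231, 95.5, 244, 131 and 203 CPM from duodenum to rectum. Its receptor Cxcr2, the neutrophil receptor, had 68 UMIs in 62 cells, and no class exceeded a mean of 2.13 CPM. Ccl27a, with 831 UMIs, was low and broad, at 23.3 and 25.4 CPM in colon and rectum in PDGFRA-high subepithelial-like cells and 2.10, 3.0, 3.84 and 4.29 CPM in duodenum, jejunum, ileum and colon in crypt-like cells, and its symbol covers 3 near-identical gene copies, so reads among copies are uncertain.

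Lymphatic endothelial-like cells were the source of Ccl21a, the ligand that leads Ccr7-bearing cells into lymph vessels. It was at 13123, 6733, 23273 and 18677 CPM in duodenum, jejunum, colon and rectum, the highest class mean of any of the 57 genes at 15451 CPM, and 99.1% of its 11550 UMIs were in 117 such cells. All cells of this class had a UMI in all 5 libraries, against at most 0.228% of B-like cells. All stromal cells together had 0, 1, 0, 0 and 3 UMIs from duodenum to rectum, and Ccl19, the other Ccr7 ligand, had 18 UMIs in 18 cells. Both symbols cover near-identical copies, and Ccl21b and Ccl21c had 0 UMIs. Ccr7 was led by B-like cells, at 322, 275, 322, 191 and 443 CPM from duodenum to rectum, and conventional dendritic-like cells, in which Ccr7 is the receptor for leaving tissue, had 59.3, 39.4, 23.3 and 53.1 CPM in duodenum, jejunum, ileum and rectum. T-like cells ranged widely, at 82.4, 1.99, 95.8, 7.57 and 168 CPM from duodenum to rectum.

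**Figure D4:**
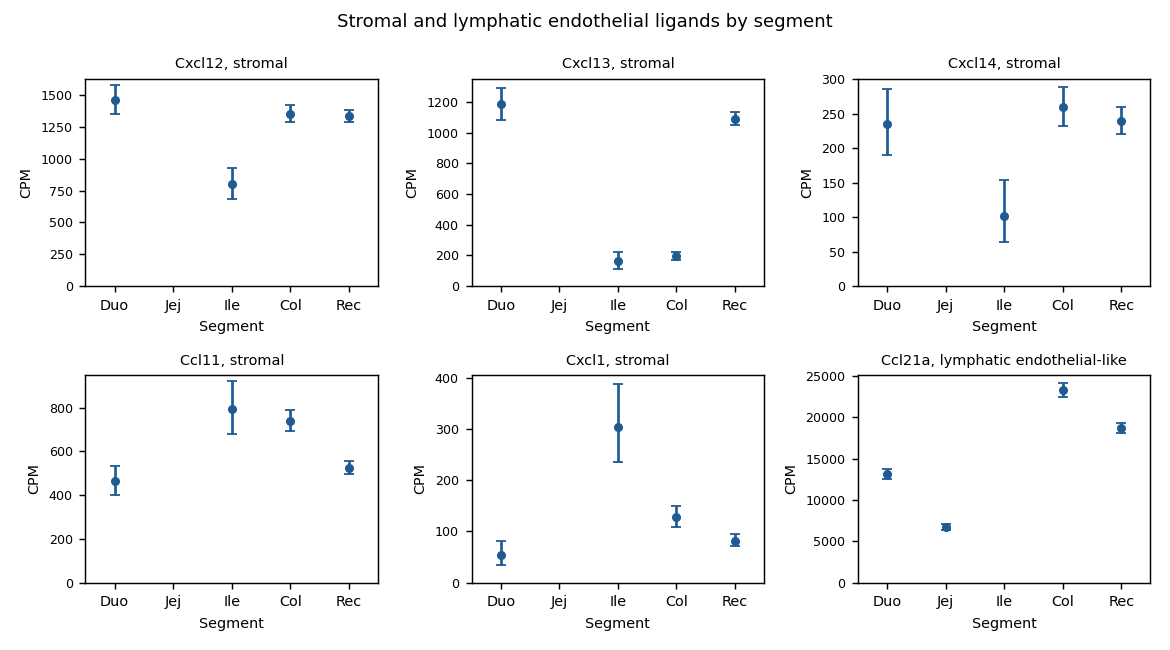
Levels (CPM, axes from 0) of 5 ligands over all stromal cells and of Ccl21a in lymphatic endothelial-like cells, by segment, 1 library each, with exact Poisson 95% intervals; libraries with fewer than 20 such cells are not shown. Cxcl13 is high in duodenum and rectum and low in ileum and colon, and no ligand over stromal cells has a 4-fold gap between small and large intestine. The mix of stromal classes differs between the libraries.

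Macrophage-like cells, 503 in all, led for 11 ligands: Cxcl2, Ccl4, Cxcl16, Ccl7, Ccl2, Ccl3, Cxcl10, Ccl12, Cxcl9, Ccl8 and Ccl24. The highest was Cxcl2, a neutrophil attractant induced in inflamed and stressed macrophages, at 1674, 804, 1680, 1447 and 2017 CPM from duodenum to rectum, all above the second class, conventional dendritic-like cells, which had 247, 292, 294 and 43.3 CPM in duodenum, jejunum, ileum and rectum. The monocyte attractants Ccl2, Ccl7 and Ccl12, which act on Ccr2, were all lowest in duodenum. In macrophage-like cells Ccl2 was at 171, 741, 424, 437 and 502 CPM from duodenum to rectum, Ccl7 at 118, 755, 599.5, 302 and 529.8 CPM from duodenum to rectum and Ccl12 at 178, 340.4, 569, 393 and 445 CPM from duodenum to rectum. Trophocyte and adventitial-like cells were the second source of Ccl2 and Ccl7, at 62.1 and 126 CPM in colon and rectum for Ccl2 and 82.8 and 223 CPM in colon and rectum for Ccl7.

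Cxcl9 and Cxcl10, interferon-induced ligands of Cxcr3, differed from the monocyte attractants in their order over the segments. Cxcl9 was at 652, 177, 242, 23.9 and 74.5 CPM from duodenum to rectum and Cxcl10 at 699, 191, 559, 343 and 204 CPM from duodenum to rectum in macrophage-like cells, both highest in duodenum. Cxcl10 was also found outside macrophages: plasma-like cells had 236, 17.0, 203, 87.8 and 98.0 CPM from duodenum to rectum, and colonic crypt-like cells 61.9 CPM (95% interval 57.8 to 66.1) against 9.77, 7.79 and 9.25 CPM in crypt-like cells of duodenum, jejunum and ileum. In the unnamed immune cluster Cxcl9 had 0, 391 and 0 CPM in duodenum, jejunum and ileum, present in 1 library alone.

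Upstream sequences are shown for 3 of these ligands on chromosome 5, because Cxcl2, Cxcl9 and Cxcl10 were the macrophage-led ligands whose 250 upstream bases held a kappaB motif, the binding motif of NF-kappaB. Capitals mark matches to kappaB (GGG and TTCC with any 2 or 3 bases between them), the interferon-stimulated response element (GAAA at both ends of any 2 bases), AP-1 (TGANTCA) and, on the gene's strand only, TATAAA. All are on GRCm38.p6, at chr5:90903649-90903898 on the plus strand, chr5:92328080-92328329 on the minus strand and chr5:92348890-92349139 on the minus strand.
Cxcl2: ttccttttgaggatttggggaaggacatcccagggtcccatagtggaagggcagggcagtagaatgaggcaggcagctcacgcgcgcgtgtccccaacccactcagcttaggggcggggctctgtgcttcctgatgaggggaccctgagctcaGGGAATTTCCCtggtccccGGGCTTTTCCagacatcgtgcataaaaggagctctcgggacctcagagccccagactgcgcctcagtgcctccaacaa
Cxcl9: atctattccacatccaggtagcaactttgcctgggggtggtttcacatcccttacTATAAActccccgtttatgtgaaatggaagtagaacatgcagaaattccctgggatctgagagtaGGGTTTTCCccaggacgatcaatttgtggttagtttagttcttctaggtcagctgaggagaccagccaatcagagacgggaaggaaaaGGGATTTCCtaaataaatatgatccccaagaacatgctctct
Cxcl10: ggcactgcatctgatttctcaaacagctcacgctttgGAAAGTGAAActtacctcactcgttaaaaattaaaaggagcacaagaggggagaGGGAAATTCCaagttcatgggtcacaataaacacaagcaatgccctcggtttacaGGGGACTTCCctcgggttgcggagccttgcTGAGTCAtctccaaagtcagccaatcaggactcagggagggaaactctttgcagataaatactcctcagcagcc
The Cxcl2 window held GGGAATTTCC with its first base 97 bases before the start, which overlaps a match on the other strand, and GGGCTTTTCC 78 bases before it. Cxcl9 held GGGTTTTCC and GGGATTTCC at 130 and 42 bases before the start, with TATAAA at 195. Cxcl10 held GGGAAATTCC and GGGGACTTCC at 159 and 104 bases, GAAAGTGAAA at 213 and TGAGTCA at 74. A kappaB match on either strand was found for 3 of the 6 macrophage-led ligands with a RefSeq window, 5 of 17 other ligands and 1 of 11 receptors, against 9.33% of the 27025 genes with a window. The response element was found for 3.46% and AP-1 for 7.82% of genes. A match is a string of letters and not a measured binding site.

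Ccl3 and Ccl4, inflammatory ligands that attract myeloid cells and lymphocytes, were led by macrophage-like cells, Ccl3 at 641, 386, 354, 378 and 268 CPM from duodenum to rectum and Ccl4 at 1109, 746, 706, 487 and 329.5 CPM from duodenum to rectum. For both, duodenum was highest and rectum lowest. Innate lymphoid and NK-like cells were second for Ccl4, at 875, 1105, 378, 348 and 113 CPM from duodenum to rectum, above macrophage-like cells in jejunum. B-like cells also had Ccl4, at 124, 114, 144, 88.2 and 162 CPM from duodenum to rectum, with a UMI in 4.23 to 6.61% of cells. The RefSeq models of the 2 genes overlap, so reads in the overlap are uncertain.

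Cxcl16, which is membrane-bound and binds Cxcr6, was even over the segments, at 676, 515, 568, 531 and 595 CPM from duodenum to rectum in macrophage-like cells, and 25.2% of its UMIs were epithelial. Conventional dendritic-like cells had 209.8, 159, 219 and 220.2 CPM in duodenum, jejunum, ileum and rectum. Cxcr6 was at 604, 846, 602, 530.5 and 361 CPM from duodenum to rectum in innate lymphoid and NK-like cells and 276, 223, 227, 182 and 173 CPM from duodenum to rectum in T-like cells. Rectum was lowest in both classes. Ccl8, known in mice as a Ccr8 ligand, was at 144, 61.5, 151, 361 and 99.1 CPM from duodenum to rectum in macrophage-like cells, highest in colon, and Ccl24 (eotaxin-2) at 245, 269, 30.3, 39.6 and 13.3 CPM from duodenum to rectum, in which duodenum and jejunum stood apart from the other 3 libraries. Absorptive-like cells of duodenum and jejunum had 7.65 and 6.01 CPM of Ccl24 too.

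Among receptors for the macrophage-led ligands, Ccr2, Cxcr3 and Cxcr6 were led by innate lymphoid and NK-like cells. Ccr2 was led by innate lymphoid and NK-like cells, at 139.8, 231, 154, 352 and 242 CPM from duodenum to rectum, and macrophage-like cells, some of which come from Ccr2-bearing monocytes, had 43.6, 60.3, 128, 78.3 and 147 CPM from duodenum to rectum. Cxcr3 was at 67.7, 84.6, 95.6, 89.5 and 89.8 CPM from duodenum to rectum in innate lymphoid and NK-like cells and 47.5, 59.8, 71.1, 83.3 and 57.8 CPM from duodenum to rectum in T-like cells, on 526 UMIs in all. Neither class set small against large intestine for Cxcr3.

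Ccl5 (RANTES), a ligand of Ccr1 made by cytotoxic lymphocytes, had 88.4% of its 32256 UMIs in T-like cells. T-like cells had 12021, 11258, 5643, 1654 and 1489 CPM from duodenum to rectum, and innate lymphoid and NK-like cells 2517, 496, 3091, 1214 and 655 CPM from duodenum to rectum. The segment difference went with the number of cells in the cytotoxic cluster: there Ccl5 was at 20652, 18687 and 20835 CPM in duodenum, jejunum and ileum, whereas in the T-like cluster of every library it was at 1832, 1861, 1771, 1385 and 1489 CPM from duodenum to rectum. The cytotoxic cluster had 177, 54 and 23 cells in duodenum, jejunum and ileum and 3 and 0 in colon and rectum. Xcl1 (lymphotactin), the ligand of Xcr1, was led by innate lymphoid and NK-like cells, at 699, 192, 519, 569 and 613 CPM from duodenum to rectum, with T-like cells at 317, 395, 322, 363 and 124 CPM from duodenum to rectum. The cluster led by Ncr1 and Xcl1, an NK receptor gene and the ligand itself, held 150 of the 360 cells.

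Xcr1 was confined almost wholly to conventional dendritic-like cells, which held 94.6% of its 1302 UMIs, at 174, 102, 131 and 263 CPM in duodenum, jejunum, ileum and rectum. Within them it separated the 2 clusters: the cluster of 114 cells led by Xcr1 and Clec9a, markers of cross-presenting dendritic cells, had 567 and 332 CPM in duodenum and rectum, and the cluster of 318 cells led by Cd209a had 1.54, 23.7 and 0 CPM in duodenum, jejunum and ileum. The 2 clusters were unevenly spread, with 150 of 185 duodenal but 19 of 63 rectal cells in the Cd209a cluster, and this mix moves with the level of the class. Ccl17 and Ccl22, the Ccr4 ligands, were led by the same class, Ccl17 at 6.79, 58.9, 17.9 and 78.7 CPM in duodenum, jejunum, ileum and rectum and Ccl22 at 59.7, 52.3, 136 and 79.6 CPM in duodenum, jejunum, ileum and rectum. UMIs of both were in few cells, with 5.41 to 14% and 6.35 to 19.1% of cells. Ccr4 had 130 UMIs, led by innate lymphoid and NK-like cells at 9.02, 33.8, 29.1, 35.2 and 58.9 CPM from duodenum to rectum. Ccl1, the other Ccr8 ligand, had 158 UMIs in 24 cells, 129 of them in rectum, and Cxcl3 had 59 UMIs.

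Small and large intestine were compared by size alone: a gene was counted where its lowest library on one side was at least 4-fold above the highest on the other, with at least 50 UMIs. Over whole libraries Ccl25 and Ccl5 were higher in small intestine, 2 of 46 genes, against 2.09% of all genes, and Ccl11 and Cxcl14 in large intestine, against 1.74%. Ccl11 was at 3.65, 0.655, 5.02, 23.4 and 32.5 CPM from duodenum to rectum and Cxcl14 at 2.19, 0.684, 1.14, 9.50 and 16.2 CPM from duodenum to rectum. The libraries held 50, 12, 22, 173 and 285 stromal cells from duodenum to rectum, and over stromal cells alone Ccl11 was at 464, 793, 740 and 526 CPM in duodenum, ileum, colon and rectum and Cxcl14 at 234, 102, 259 and 239.6 CPM in duodenum, ileum, colon and rectum, with no 4-fold gap. In whole libraries, fewer stromal cells and less RNA per cell cannot be told apart without such a split. Ccl5 likewise was called over whole libraries only with the cytotoxic T-like cluster included: without it Ccl25 alone remained higher in small intestine.

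Within classes, few members passed. In epithelial cells Ccl25 and Ccl5 were higher in small intestine, 2 of 21 genes, against 2.71% of all genes, and Cxcl1 in large intestine, against 2.20%. With cells limited to at most 10% mitochondrial UMIs, the Cxcl1 and Ccl5 calls were lost and Ccl25 alone was counted, and the Ccl5 call was also lost with every deposited barcode kept and with no doublets removed. The epithelial Ccl5 was at 4.33, 5.44, 0.890, 0.135 and 0.0899 CPM from duodenum to rectum, which is 0.00604 to 0.0483% of the T-like level of each library, below the 0.0331 to 0.0599% at which 11 T cell markers stood there. In T-like cells Ccr9 passed, 1 of 14 genes, against 0.237% of all genes, and no gene passed as higher in large intestine, against 0.0887%. Without a fold limit, 6 T-like genes had every small intestinal library above every large intestinal one, against 28.5% of all genes, and 3 the reverse, against 9.21%, while B-like cells had 2, against 20.5%, and 0, against 7.95%. No member passed in B-like cells (0.225% of all genes in small and 0.0449% in large intestine), in macrophage-like and dendritic-like cells together (0.260% and 0.160%), or in stromal cells (0.0583% and 0.0233%). At 2-fold, T-like cells gave 5 genes higher in small intestine, Ccl3, Ccl4, Ccl5 and Ccr9 among them, against 2.06% of all genes, and none higher in large intestine, against 0.325%. Whole libraries gave at 2-fold 3 genes higher in small intestine (Ccl25, Ccl5 and Ccr9), against 4.31%, and 6 higher in large intestine (Ccl8, Ccl11, Ccl28, Cxcl1, Cxcl12 and Cxcl14), against 6.26%. Epithelial cells gave 2 in each direction, Ccl25 and Ccl5 against 5.12% and Ccl20 and Cxcl1 against 5.75%. B-like cells gave none at 2-fold (0.932 and 0.135% of all genes), nor did macrophage-like and dendritic-like cells together (1.40 and 0.821%) or stromal cells (0.408% each way). From duodenum to rectum there were 99, 102, 84, 110 and 108 macrophage-like and 185, 136, 33, 15 and 63 dendritic-like cells. How far this mix moves the pooled levels was not tested. The rule was not applied to macrophage-like cells alone, in which Cxcl9 was higher in every small than in every large intestinal library. Pooled with dendritic-like cells, Cxcl9 had a gap of 1.82-fold. Ccl3 had 0 UMIs in the colonic T-like cells and was set there at the floor of 3 counts.

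Of 32 ligand and receptor pairs listed from textbook knowledge, 27 had both members at 50 UMIs or more. The ligand and the receptor were led by different classes in 24 of them, in 13 across compartments and in 11 within the immune compartment. When every such ligand was set beside every such receptor, 89.5% of 465 pairings were led by different classes and 48.6% by different compartments, so the shares among the listed pairs were near those of any pairing. Of the 13, 3 involve Cxcr2, whose leading class, lymphatic endothelial-like cells, rests on 1 UMI; without it, 10 of 24 pairs lay across compartments. The 3 pairs with the same leading class, Ccl3 with Ccr1 among them, were led by macrophage-like cells on both sides. Because the leading class rests on levels of RNA, it does not show binding or signalling.

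Genes near the chemokine system were read from a list of 30, of which 27 had at least 50 UMIs. Of these 27, 16 were led by immune classes (33.2% of all genes), 7 by endothelial (8.26%), 2 by stromal (28.2%) and 2 by epithelial classes (30.4%). The Ackr scavenging receptors, which bind chemokines without G-protein signalling, were led by classes outside the immune compartment, whereas Ccrl2, a receptor that binds chemerin, was led by macrophage-like cells at a mean of 309.7 CPM, with 91.9% of its UMIs in immune classes. Ackr2 was at 64.7, 48.2, 205 and 124 CPM in duodenum, jejunum, colon and rectum in lymphatic endothelial-like cells and Ackr3, a second receptor of Cxcl12, at 218, 222, 572 and 680.3 CPM in duodenum, jejunum, colon and rectum. Trophocyte and adventitial-like cells averaged 359 CPM of Ackr3, and stromal classes held 52.0% of its UMIs. Ackr4, which removes Ccl21 and Ccl25, was at 347 and 266 CPM in colon and rectum in trophocyte and adventitial-like cells, of which it is itself a marker, as Coro1a, Rac2 and Madcam1 are for other lists. Pf4, a platelet and macrophage chemokine whose symbol the naming rule does not take in, was at 681, 1032, 604, 1805 and 1544 CPM from duodenum to rectum in macrophage-like cells. Itgb7, the integrin chain that pairs with Itga4 in gut homing, was led by innate lymphoid and NK-like cells at 356, 333, 378, 409 and 474 CPM from duodenum to rectum. Gpr15, a receptor for homing to the large intestine, had 50 UMIs in all.

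Fewer than 50 UMIs were counted for 11 of the 57 genes. Ccl19 had 18 and Ccr8 had 14, and Ccl26, Ccr3, Cxcl15 and Cxcl17 had 1, 8, 8 and 7. Ccl21b, Ccl21c, Ccl27b, Ccr1l1 and Cxcr1 had 0 UMIs in every library. Ccr3, the eosinophil receptor, and Cxcr2, the neutrophil receptor, were both near this floor, while ligands of each, Ccl11 and Cxcl2, had 2764 and 9910 UMIs. No cluster carried the name of a granulocyte class.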

How the data were processed

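RNA of single intestinal cells was counted with the 10x Genomics platform in 1 library per segment, from cells sorted as propidium iodide negative, with paired reads of 150 bp per the labels. The deposited values are raw UMI counts per gene and barcode, per the file headers. Cell Ranger 4.0.0, Seurat and mm10 are named in the submitters' processing notes, whereas the file headers name cellranger 7.2.0, and no annotation is named. Spatial data that the design text mentions were not analysed here.

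From these deposited counts, a barcode needed 300 genes or more, with mitochondrial UMIs no higher than 20%, and 12255 of 16535 passed. Doublets were removed by rank of Scrublet score at 0.8% per 1000 barcodes, which took out 333, and Scrublet's own threshold marked 27. Cells were clustered in scanpy 1.11.5 with igraph 0.11.9 (2000 variable genes without the 57 genes, 30 components, 15 neighbours, Leiden resolution 1.0). Clusters were named from 33 marker lists, where at least 3 markers had to be 1.5-fold raised, with 5 CPM added, and found in 10% of cells. Shares were also given after thinning each cell to 1000 UMIs. Python 3.11.15, numpy 2.4.6, pandas 2.3.3, scipy 1.17.1 and matplotlib 3.10.9 were used, and edgeR 4.0.16 gave TMM factors for an alternative scaling only. The count tests edgeR and DESeq2 were not run, because 1 library per segment gives no replicate error, and cells are not replicates. With 3 segments against 2, a two-sided exact permutation test could not go below 0.2, so no p-value is given. The gap and leading class steps were also run on simulated Poisson counts. These had no variation between libraries beyond counting error and the changes put in, so the run checks the code only.

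Values by library are given for genes with at least 200 UMIs and for members of the listed pairs with at least 50 UMIs; lower genes are given by counts. The 57 genes, the marker lists, the pairs and the other genes were chosen with earlier results of these data known. Promoter windows and gene positions are RefSeq's on GRCm38.p6: all 57 symbols matched a gene and 42 had a window. Those without one included Ccl11, Ccl2, Ccl21c, Ccl24, Ccl26, Ccl4, Ccl5, Ccl7, Ccr10, Ccr7, Cxcl16, Cxcl17, Cxcl5 and Cxcr5. Some results that the counts include are not reported here by gene.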

Additional observations from a re-analysis of the deposited data

Results flagged for a closer look

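The barcodes removed by the cell filters and the doublet step, 4613 in all, held 25195 UMIs of the 57 genes, which makes a signal outside the cells that the results rest on. That was 8.79% of their 286733 UMIs in all deposited barcodes, against 16.1% of the UMIs of all genes. From duodenum to rectum the removed share of chemokine and receptor UMIs was 9.55, 10.1, 9.28, 8.79 and 5.60%, against 17.7, 21.5, 14.5, 16.7 and 9.14% for all genes. Chemokine genes thus lost a smaller share than all genes in each of the 5 libraries. Groups of 1 library allowed no search for samples that stand apart within a group.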

How the results depend on the processing

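No paired analysis was possible because each segment had 1 library and no test was run. Of the 46 genes, 39 to 45 kept their leading class and 44 to 46 their leading compartment over the 13 alternatives to cell filters, clustering, averaging and libraries. Receptors led by endothelial classes, 1 (Cxcr2), were 0 with every barcode, with no doublets removed, at resolution 2.0, with the 57 genes allowed in clustering, with summed CPM and with the mean of cell fractions; leaving out a library gave 0 to 2, with 2 without the jejunum, where Ccr9 moved to lymphatic endothelial-like cells, and 0 without the colon. Receptors led by stromal classes, 0, were 0 to 1, with 1 (Cxcr2) without the colon. Among ligands, Ccl9 moved to macrophage-like cells with summed CPM, without the jejunum and without the ileum. The rectum held 172 of the 174 Cxcl5 UMIs, and without it every compared class was at 0 CPM. The label of Cxcl5 then passed to B-like cells as a tie at 0, with 0 UMIs in that class. The cause was not tested for the other moves.

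For genes higher in small intestine, whole libraries gave 2, but 1 at no more than 10% mitochondrial UMIs and 2 to 4 when a library was left out, 4 without the ileum. Epithelial cells gave 2, but 1 with every barcode, 1 at 10% mitochondrial UMIs, 1 with no doublets removed, and 2 to 4 without a library, 4 without the rectum. T-like cells gave 1, but 5 at 2-fold, 2 (Ccl5 and Ccr9) at resolution 0.5, 2 (Ccr9 among them) with the cluster present in every library, and 1 to 3 without a library, 2 without the jejunum or the ileum and 3 without the colon. Macrophage-like and dendritic-like cells gave 0, but 0 to 2 without a library, 2 without the rectum, and stromal cells 0, but 0 to 1, 1 without the duodenum. For genes higher in large intestine, whole libraries gave 2, but 6 at 2-fold and 2 to 7 without a library, 7 without the colon. Epithelial cells gave 1, but 2 with every barcode, 0 at 10% mitochondrial UMIs, 2 at 2-fold and 1 to 2 without a library, 2 without the colon. Macrophage-like and dendritic-like cells gave 0, but 0 to 1, 1 without the jejunum or the ileum. The counts with no doublets removed, at both other resolutions, with the 57 genes allowed in clustering and with that T-like cluster were chosen after seeing the data. A side with fewer libraries is easier to clear, by construction of the rule. TMM scaling and a minimum of 200 UMIs left all 12 of these counts within 1.5 times. No gene counted as higher in small intestine was counted as higher in large intestine under any of these settings. This covers the counted genes only, and some leading classes did change, as given above.

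Levels in the leading class moved beyond their interval for 29 of 46 genes with every barcode, 15 at 10% mitochondrial UMIs and 22 with the mean of cell fractions, and shares of cells moved for 44 of 46 after thinning. Depth limits low receptors most: Cxcr2 and Ccr4 had 68 and 130 UMIs.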
